A study of Arabidopsis thaliana with 10 samples.

Results

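The PERK genes of Arabidopsis encode proline-rich, extensin-like receptor kinases, and the peaks described here are those of YFP-LIMYB chromatin that the authors assigned to 10 of these genes. The 10 genes, among 27444 nuclear protein-coding genes, were PERK1 (AT3G24550), PERK3 (AT3G24540), PERK4 (AT2G18470), PERK5 (AT4G34440), PERK8 (AT5G38560), PERK9 (AT1G68690), PERK10 (AT1G26150), PERK12 (AT1G23540), PERK13 (AT1G70460) and PERK15 (AT1G52290). They were chosen by locus, and all peaks assigned to them at any position were taken. The reference table carries a PERK symbol for each of the 10, and for 5 further loci that are given apart. Peaks of these data were known when the genes were proposed, so every count and value of their peaks is a description, and no test was made.

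The data were lists of peaks from chromatin immunoprecipitation with an anti-GFP antibody, followed by sequencing. All 10 samples were seedlings grown for up to 12 days, from lines that overexpress LIMYB and carry a YFP-LIMYB transgene: L1 (2 samples), L3 (4 samples) and L4 (4 samples). The labels do not give the promoter of the transgene or whether the lines are independent, and plants without the tag and input DNA were not analysed here. Each line had 1 peak list, with 9604 nuclear peaks in L1, 8952 in L4 and 0 in L3. No value per peak therefore carries a replicate error, and the depth of each sample is unknown. Whole seedlings were used, so occupancy in fewer cells and lower occupancy per cell cannot be told apart.

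PERK proteins sit in the plasma membrane, with a proline-rich outer part that resembles the extensins of the cell wall, a single membrane span and a kinase domain inside the cell. They are counted among the receptors that sense the cell wall during growth. In Arabidopsis, PERK8, PERK9 and PERK10 bind the kinase KIPK and act together as negative regulators of root growth. PERK4 takes part in abscisic acid responses of roots, PERK13 restrains root hair growth, and PERK5 and PERK12 act in pollen tubes. PERK12 is also known as INFLORESCENCE GROWTH INHIBITOR 1. A relative of PERK1 in Brassica napus is induced by wounding. LIMYB is a MYB-domain repressor of transcription downstream of NIK1, itself a receptor kinase of the plasma membrane.

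Of the 10 genes, 6 had an assigned peak in at least 1 line and 4 had none. PERK4, PERK5, PERK8, PERK9 and PERK10 had peaks in both L1 and L4, and PERK13 had one in L4. In L3, which had 0 nuclear peaks, no PERK gene had an assigned peak, so both lines here means L1 and L4. PERK1, PERK3, PERK12 and PERK15 had no row in any list. The counts were thus 5 genes in L1, 6 in L4 and 5 in both, where 25.7%, 24.4% and 14.3% of all nuclear protein-coding genes had an assigned peak. In all 5 genes with peaks in both lines, an L1 peak overlapped an L4 peak by at least 1 bp, as in 12.3% of all genes. Nothing is read from these shares, since the choice of genes used the same peaks.

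The 6 genes held 6 peaks in L1 and 7 in L4. PERK9 had 2 in each line, as 4.10% of all genes in L1 and 3.83% in L4 had 2 or more. All 6 L1 peaks overlapped an L4 peak, where 45.0% of nuclear L1 peaks did so. In L4, 6 of the 7 overlapped an L1 peak, against 48.2% of nuclear peaks. By position, 4 of the 6 L1 peaks and 5 of the 7 L4 peaks lay wholly inside the assigned gene, as did 26.0% of the 9604 nuclear peaks of L1 and 27.8% of the 8952 of L4. The remaining 2 in each line were upstream, and 0 were downstream. The genes were proposed with these peaks known, so nothing is read from this difference either.

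**Figure D1:**
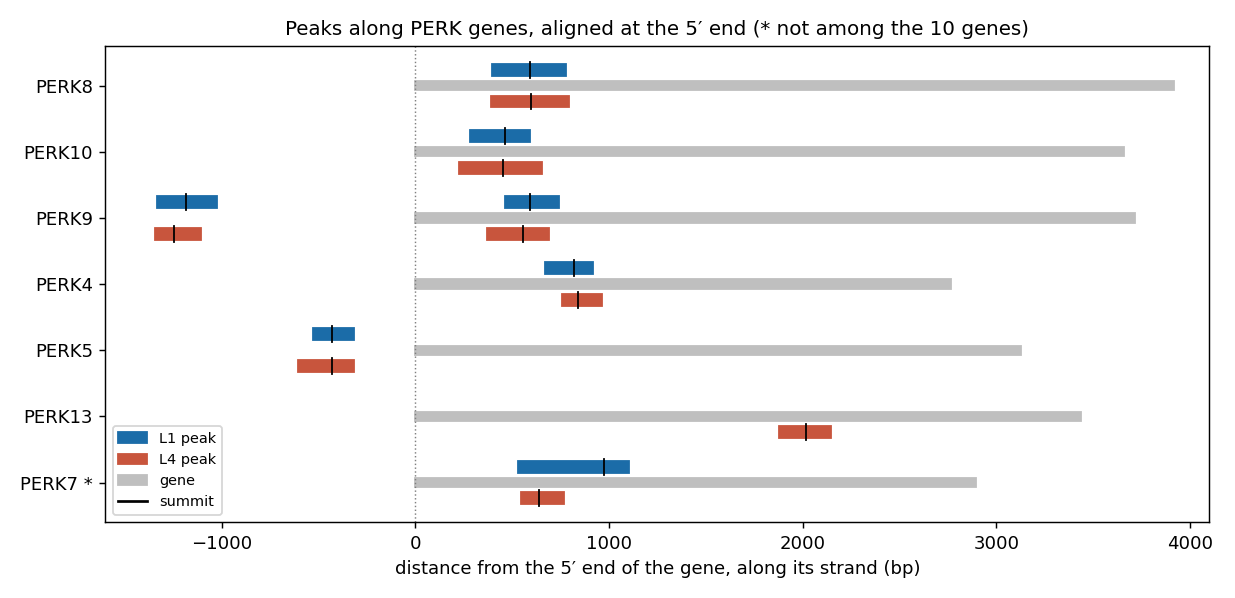
Peaks of L1 (above each gene) and L4 (below) along the 6 PERK genes with an assigned peak and PERK7, with the distance from the gene's 5′ end in bp on the x axis and black ticks at the summits. In PERK8, PERK9 and PERK10 the inside summits of both lines lie between 455 and 597 bp from the 5′ end, and the PERK13 summit of L4 lies at 2016 bp.

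PERK8 carried the highest peak of the family in both lines. The L1 peak lay on chromosome 5 at 15439647 to 15440028 and had a pileup of 113 fragments at its summit. Its fold enrichment, read here as the authors' ratio of the pileup to the background nearby, was 32.29. The L4 peak lay at 15439641 to 15440044, with a pileup of 163 fragments and a fold of 39.76. These folds ranked 8th of 9604 nuclear peaks in L1 and 6th of 8952 in L4, where the medians were 8.72 and 11.65. The PERK8 folds were thus 3.70 times the median of the L1 list and 3.41 times that of the L4 list. On the −log10 scale the q-values were 121.16 in L1 and 188.72 in L4. PERK8 runs from 15439249 to 15443164 on the plus strand in the files, whose genome build is not given in the sources used here.

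Both PERK8 summits lay in the 5′ part of the gene. They were 591 bp from the 5′ end in L1 and 597 bp in L4, which is 15.1% and 15.2% of the gene's 3916 bp. The summits of the lines were 6 bp apart, and 94.6% of the longer peak was shared. The L1 peak spanned 382 bp and the L4 peak 404 bp, at the 95.7th and 95.2nd percentiles of the widths of nuclear peaks. Neither touched the promoter window, here the stretch from 1000 bp upstream to 100 bp downstream of the 5′ end. The files do not say whether a summit lies in an exon or an intron.

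PERK10 and PERK9, which act with PERK8 in root growth, also had inside peaks at a like distance from the 5′ end. In PERK10 the L1 peak (chromosome 1, 9042698 to 9043003) had a pileup of 63 fragments and a fold of 19.94. The L4 peak (9042635 to 9043062) had a pileup of 128 and a fold of 28.57. Both stood in the upper part of their list, at the 97.6th percentile of folds in L1 and the 98.1st in L4. PERK10 is on the minus strand, from 9039628 to 9043288, and its summits lay 463 and 455 bp from the 5′ end, 8 bp apart. By pileup, the L4 peak of PERK10 was at the 99.5th percentile of its list.

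PERK9 had a pair of sites that both lines shared. Inside the gene, the L1 peak (chromosome 1, 25789070 to 25789351) had a pileup of 29 fragments and a fold of 12.95, at the 85.3rd percentile. The L4 peak (25788980 to 25789300) had a pileup of 41 and a fold of 21.58, at the 92.5th percentile. Their summits were 592 and 556 bp from the 5′ end, 36 bp apart. Counted from the 5′ end of each gene, these summits and those of PERK8 differed by 1 bp in L1 and by 41 bp in L4.

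The other PERK9 site lay upstream of the gene, which runs from 25788608 to 25792324 on the plus strand. Its L1 peak (25787273 to 25787584) had a pileup of 30 fragments and a fold of 13.76, and its L4 peak (25787264 to 25787503) had 28 fragments and 14.43. The pileups of the inside and the upstream site thus differed by 1 fragment in L1, with the upstream site higher. In L4 the inside site was higher, by 13 fragments. The upstream summits were 1183 bp in L1 and 1248 bp in L4 from the 5′ end, outside the promoter window. Overlapping L1 and L4 peaks at 2 or more sites of 1 gene occurred in 1.22% of all nuclear protein-coding genes.

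PERK4 and PERK5 had peaks near the middle of their lists. In PERK4 the L1 peak (chromosome 2, 8007136 to 8007381) had a pileup of 17 fragments and a fold of 8.02. The L4 peak (8007091 to 8007296) had 14 fragments and a fold of 10.9. Both folds were below the median of their list, at the 39.5th percentile in L1 and the 44.3rd in L4. They were the only member peaks below it. PERK4 (8005285 to 8008052, minus strand) had its summits 822 and 839 bp from the 5′ end, 17 bp apart.

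The PERK5 peaks were the only member peaks in a promoter window. The L1 peak (chromosome 4, 16465301 to 16465512) had a pileup of 18 fragments and a fold of 9.4. The L4 peak (16465224 to 16465512) had 19 fragments and a fold of 12.67. Their summits were 430 and 432 bp upstream of the PERK5 5′ end (16465828, plus strand), 2 bp apart. This stretch is not free of other genes. CHB3 (AT4G34430), for a SWI3-type subunit of chromatin remodelling complexes, ends 504 bp before PERK5 on the same strand. The peaks overlapped its last 23 bp in L1 and its last 100 bp in L4, and the summits lay 75 and 73 bp beyond its 3′ end. The authors' annotation assigned the peaks to PERK5, which begins 316 bp beyond the peak edge in both lines, and not to CHB3, which they touch.

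A promoter peak was present in 1 of the 10 genes, PERK5, in each line and in both, where 8.67% of all genes had one in L1, 8.04% in L4 and 3.83% in both. Peaks that overlapped the gene itself in both lines were present in 4 of the 10, PERK4, PERK8, PERK9 and PERK10, against 5.97% of all genes. In the same 4 these peaks overlapped between the lines, against 5.44% of all genes. The 6 genes named in the lists were long, from 2768 to 3916 bp, where the median over all 9821 nuclear protein-coding genes named in L1 or L4 was 1974 bp. Overlapping L1 and L4 peaks with both summits inside the gene were found in the same 4 PERK genes, in 4.26% of all nuclear protein-coding genes and in 11.9% of these 9821. Of the 1576 as long as the 6 PERK genes, 14.2% had such a pair.

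PERK13 differed between the lists. It had an inside peak in L4 (chromosome 1, 26557726 to 26557990) with a pileup of 17 fragments and a fold of 13.23, at the 64.7th percentile. The summit lay 2016 bp from the 5′ end, 58.6% along the gene (26555846 to 26559284, plus strand), farther in than any other member summit. No L1 peak was assigned to PERK13. An L1 peak at 26559299 to 26559498 (fold 7.31) began 15 bp beyond its 3′ end and was assigned to AT1G70470. Without replicate columns, a site absent from L1 and a site below its calling threshold cannot be told apart.

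**Figure D2:**
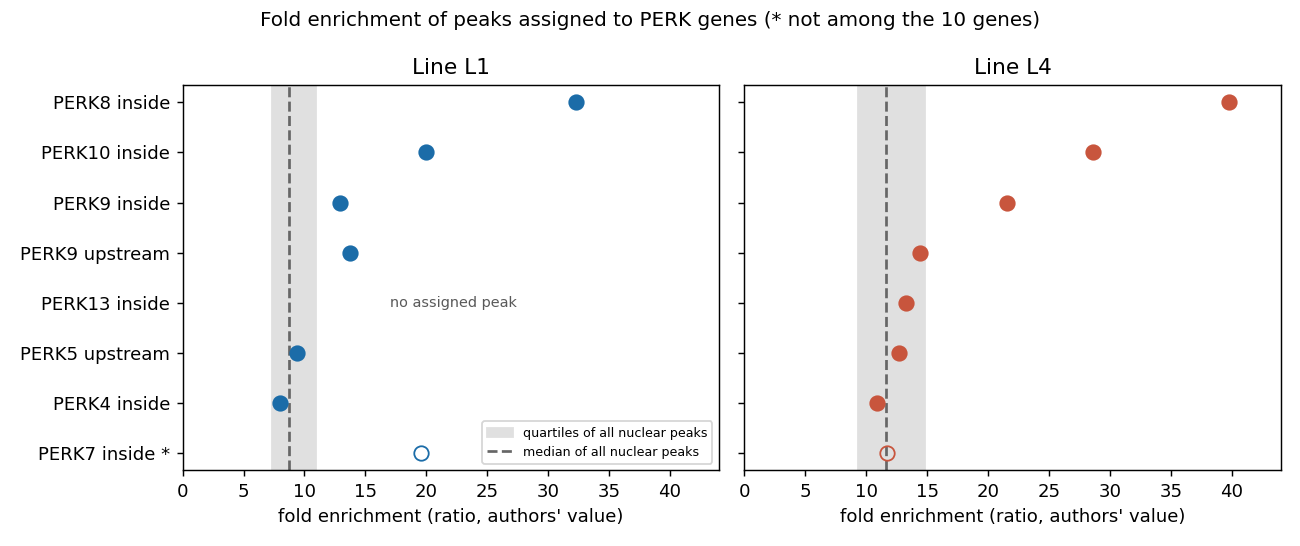
Fold enrichment (ratio, x axis) of each PERK site in L1 (left) and L4 (right), 1 point per peak. The grey band spans the quartiles and the dashed line the median of all nuclear peaks of that list. PERK8 lies farthest from the band in both lists (32.29 and 39.76), and PERK4 lies just under both medians (8.02 and 10.9).

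The order of the inside sites found in both lists was the same in both lists, from PERK8 through PERK10 and PERK9 to PERK4. The upstream site of PERK9 ranked 3rd of the 6 peaks in L1 and 4th of the 7 in L4. Over all 6 L1 peaks the folds ran from 8.02 to 32.29 with a median of 13.36, and over the 7 L4 peaks from 10.9 to 39.76 with a median of 14.43. Above the median of their list were 5 of the 6 L1 peaks and 6 of the 7 L4 peaks. No spread between samples is known, so whether neighbours in this order differ could not be tested. The summits of the 6 overlapping pairs were 2 to 65 bp apart, with a median of 12.5 bp. Over all 4324 overlapping nuclear pairs the median was 23 bp, with quartiles of 8 and 51 bp. Between 65.4% and 94.6% of the longer peak was shared in each of the 6 pairs.

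Among overlapping L1 and L4 peaks that both lay wholly inside the same gene, that of PERK8 stood at the top. When the 993 such pairs were ordered by the lower of their folds in both lines, PERK8 ranked 1st, PERK10 39th, PERK9 213th and PERK4 707th. Among the 4287 pairs assigned to the same gene in both lines at any position, PERK8 ranked 7th. The pairs most like that of PERK8 were taken as those with the smallest distance in log2 fold over the 2 lists, among 972 other genes. They were in AT5G01280, AT5G46780, NAC038, AT3G18050 and GATA13, at distances from 0.36 to 0.47 on the log2 scale. NAC038 and GATA13 are named as members of the NAC and GATA families of transcription factors. The NAC038 (AT2G24430) pair had a fold of 31.09 in L1 and of 29.78 in L4, and that of GATA13 (AT2G28340) 27.6 and 29.78. Their summits lay 2634 and 1893 bp from the 5′ end in L1, farther into the gene than the PERK8 summit. Those of AT5G01280 and AT3G18050 lay at 815 and 1187 bp in L1, also farther in. In AT5G46780 the L1 summit, at 317 bp, was nearer the 5′ end than that of PERK8.

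**Figure D3:**
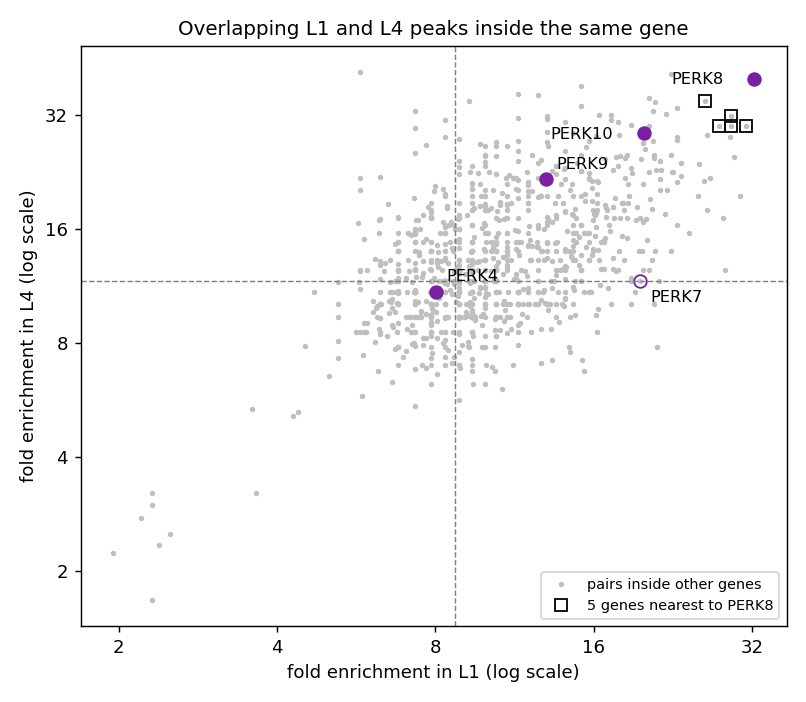
Fold enrichment in L1 (x axis) and L4 (y axis), both on log scales, for the 993 overlapping pairs of peaks wholly inside the same gene, 1 point per pair. Dashed lines mark the median fold of each list, squares the 5 genes nearest to PERK8, and the open circle PERK7. PERK8 lies at the upper right edge, at 32.29 and 39.76.

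The position of these summits was set beside that of all peaks wholly inside their assigned gene, called inside peaks here. In PERK4, PERK8, PERK9 and PERK10 the inside summits of both lines lay between 455 and 839 bp from the 5′ end, or 12.4% to 30.3% of the gene's length. PERK13, with an inside peak in L4 alone, had its summit beyond this range, at 2016 bp or 58.6%. Over all 2497 inside peaks of L1 the median distance was 1059 bp (quartiles 623 and 1665), and over 2490 in L4 it was 1077 bp (679 and 1672). The same range held the summits of 23.3% of the inside peaks in L1 and 22.8% in L4. In genes as long as the 6 PERK genes it held those of 17.1% of 556 inside peaks in L1 and 16.0% of 580 in L4. Relative to gene length, the median summit of the inside peaks was at 45.5% in L1 and 45.6% in L4. The range was read off the PERK summits themselves, so these shares describe it and test nothing.

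**Figure D4:**
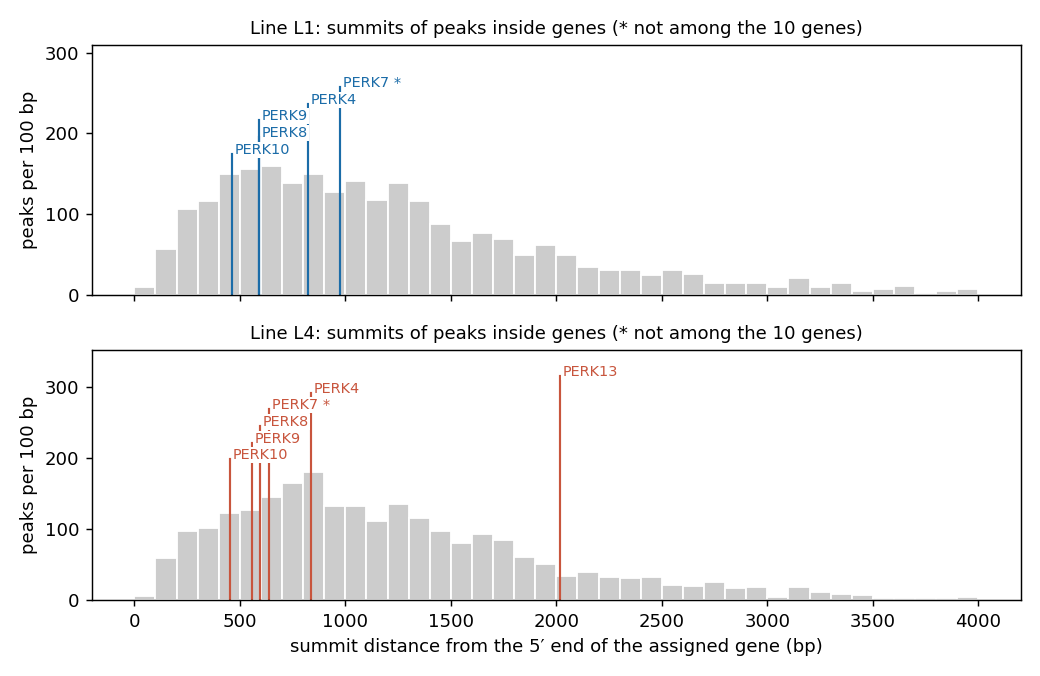
Number of summits of peaks wholly inside genes, per 100 bp (bars, y axis) by distance from the 5′ end in bp, up to 4000 (x axis), in L1 (top) and L4 (bottom), with the PERK summits as labelled lines. The lines of PERK4, PERK8, PERK9 and PERK10 fall between 455 and 839 bp, where inside peaks of all genes are frequent too. Those of PERK13 in L4 (2016 bp) and PERK7 in L1 (975 bp) fall beyond this range.

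Of the 5 further PERK loci, PERK7 (AT1G49270) was the only one with an assigned peak. PERK6, PERK11 and PERK14 had none, and PERK2 is a pseudogene in the reference table, while the lists hold protein-coding transcripts. The L1 peak inside PERK7 (chromosome 1, 18229126 to 18229695) had a pileup of 52 fragments and a fold of 19.55, at the 97.2nd percentile. The L4 peak (18229461 to 18229681) had a pileup of 15 and a fold of 11.68, at the 52.2nd percentile. The 2 peaks overlapped, but their summits were 335 bp apart, at 975 bp in L1 and 640 bp in L4 from the 5′ end. The L1 peak was 570 bp wide and covered the whole L4 peak. Over all 15 loci, PERK2 included, 6 had an assigned peak in L1, 7 in L4 and 6 in both. Of all nuclear protein-coding genes, 25.7%, 24.4% and 14.3% did so. The loci were chosen with earlier results known, so nothing is read from these counts.

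Partners of PERK proteins, other receptors of the cell wall and wall proteins made up 26 further loci. Of these, 11 (42.3%) had an assigned peak in L1, 7 (26.9%) in L4 and 4 (15.4%) in both, beside 25.7%, 24.4% and 14.3% of all nuclear protein-coding genes. The loci were chosen with earlier results known, and the shares were not tested. Of 4 loci listed for the KIPK kinases, a related kinase and the kinesin ZWI that KIPK binds, 2 had an assigned peak in L1, 1 in L4 and 1 in both. The one in both was KIPK (AT3G52890), with overlapping peaks upstream. Its L1 peak (chromosome 3, 19606289 to 19606521) and its L4 peak (19606289 to 19606496) each had a pileup of 25 fragments. The folds were 13.02 and 12.38, and the summits lay 1528 and 1508 bp upstream of the 5′ end. ZWI had none.

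Of 10 loci listed as CrRLK1L kinases, the family of the receptor FERONIA, 4 had an assigned peak in L1, 3 in L4 and 2 in both. Peaks at any position were counted here and in the lists below. Of all nuclear protein-coding genes, 25.7% had such a peak in L1, 24.4% in L4 and 14.3% in both. FERONIA itself (FER, AT3G51550) had an upstream peak in each line, 807 bp from its 5′ end in L1 (fold 6.27) and 408 bp in L4 (fold 21.53), and these did not overlap. AT4G39110 had overlapping peaks 243 and 212 bp upstream, where the fold was 22.87 in L1 and 15.91 in L4. Of 5 wall-associated kinase genes, 2 had a peak in L1 and 1 in L4, and 0 in both. Of 7 loci listed as leucine-rich repeat extensins, 3 had a peak in L1, 2 in L4 and 1 in both. That locus, AT3G24480, had overlapping peaks inside the gene with folds of 10.61 and 18.45. These lists are short, and nothing is read from their counts.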

How the data were processed

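The data were 3 annotated peak lists, 1 for each line. The submitters' processing notes name MACS2 as a tool; which settings, aligner, build and control were used, and whether replicates were pooled, is not given in the sources used here. Per the file headers, the deposited values are a pileup signal at the summit, a fold enrichment ratio and a −log10 q-value. The authors assigned peaks to protein-coding genes by a rule that the files call NearestLocation; it is not always the gene with the nearest edge. Each value is the authors' own value per peak and was used to describe or rank peaks within its list; folds of both lists were set side by side in the ordering by the lower fold and in the search for pairs like PERK8. Each line has 1 value per peak and no column for a sample, so no replicate error, interval or test was possible.

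Symbols and the 27444 nuclear protein-coding loci came from a RefSeq table of TAIR10.1. Its chromosomes and start positions picked the nuclear loci and set the order of neighbours. The gene ends set beside peaks came from the peak lists. All 41 listed loci matched. Peaks counted by position gave 9604 in L1 and 8952 in L4 on the 5 nuclear chromosomes. Percentiles count the nuclear peaks of the same list below a value, with ties shared evenly. Distances run from the summit to the gene's 5′ end. The overlap step was checked on shifted copies of nuclear L1 peaks. The members and lists were chosen with earlier results of these data known. The rule for named genes took the 10 members, other PERK loci with a peak, genes of the related lists with peaks in both lines, the 5 genes most like PERK8 and neighbours that a member peak touches. PERK2, PERK6, PERK11, PERK14, ZWI, AT1G70470, AT3G24542, RSY3 and SRO2 fall outside it and were named after their values were seen. Alternatives were the gene itself, the promoter window or 1000 bp around the gene, the upper 50% of folds, a −log10 q of at least 10, overlap definitions, the assignment, the list of loci and the background's denominator. Python 3.11.15, numpy 2.4.6, pandas 2.3.3 and matplotlib 3.10.9 were used.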

Additional observations from a re-analysis of the deposited data

How the results depend on the processing

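No paired analysis was possible because the columns carry no replicate numbers, and no replicate could be left out, since the values come as 1 list per line. With the promoter window in place of any position, the number of PERK genes with a peak fell to 1 in L1, 1 in L4, 1 in both lines and 1 with overlapping peaks. The shares of all nuclear protein-coding genes fell too, to 8.67%, 8.04%, 3.83% and 3.7%. Under the other alternatives run on the 10 genes, the counts lay between 4 and 5 in L1, 5 and 6 in L4, and 4 and 5 in both lines. With overlapping peaks they also lay between 4 and 5. All were within 1.5 times of those reported. With the other PERK loci they were 6, 7, 6 and 6 of 15. With the upper 50% of folds, 4, 5, 4 and 4 of the 10 genes had peaks, beside 14.8%, 14.2%, 7.03% and 6.21% of all genes. The shares of all genes fell under the other rules too, from 25.7%, 24.4%, 14.3% and 12.3% at any position. For peaks that overlap the gene itself they were 12.6%, 12.5%, 5.97% and 5.44%. Within 1000 bp of the gene they were 20.5%, 19.9%, 10.5% and 9.32%. At a −log10 q of at least 10 they were 14.2%, 14.6%, 7.35% and 6.58%. The alternative that adds peaks assigned to another gene that overlap a PERK gene used the coordinates in the lists. It did not reach PERK1, PERK3, PERK12 and PERK15, which have none there, so it says nothing about the genes without a peak. The share of genes with a peak in both lines was 40.0% of the genes named in L1 or L4, in place of 14.3% of all nuclear protein-coding genes, because the denominator holds fewer genes. Percentiles among peaks with the summit inside the assigned gene, an alternative chosen after seeing the data, were 99.95 in L1 and 99.88 in L4 for PERK8. They were 97.57 and 97.74 for PERK10, and 85.35 and 91.59 for the inside site of PERK9. For PERK4 they were 37.41 and 42.16, lower than among all nuclear peaks in both lists. For PERK13 in L4 the percentile was 63.13. Depth is unknown, and a called peak may have been assigned to a neighbour, so a gene without an assigned peak is not one shown to lack LIMYB.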

Other observations

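The 4 PERK genes without an assigned peak have 7 distinct protein-coding neighbours in the reference table's order, and 3 of these had assigned peaks in both lines, beside 14.3% of all nuclear protein-coding genes. These neighbours are named after their values were seen. AT3G24542, which lies between PERK3 and PERK1, had overlapping peaks just upstream (chromosome 3, 8955815 to 8956194 in L1 and 8955859 to 8956201 in L4), with folds of 7 and 7.01. RSY3, next to PERK1 on its other side, had overlapping peaks upstream (8963441 to 8963724 in L1 and 8963443 to 8963720 in L4), with folds of 21.41 and 13.82. In L4 it had a further upstream peak at 8962712 to 8962916 (fold 8.72), 854 bp before the 5′ end of RSY3. The lists give no coordinates for PERK1 or PERK3. Positions in the reference table were used for gene order and not set beside peaks. Whether these peaks touch either gene was therefore not examined. SRO2, next to PERK12, had overlapping peaks inside the gene with folds of 10.44 and 10.9, and neither neighbour of PERK15 had a peak.

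The background behind a peak can be read from the deposited values as (pileup + 1) / fold − 1, if the peak caller added 1 to both terms, which no source used here records. For PERK8 this value was 2.53 in L1 and 3.12 in L4, at the 91.5th and 96.7th percentiles of nuclear peaks, whose medians were 1.11 and 0.443. For PERK10 it was 2.21 and 3.52, at the 89.0th and 97.1st percentiles. The sites of this family with the highest folds thus also had a background above that of most peaks in their list. For PERK4 it was 1.24 and 0.376, at the 60.2nd and 27.2nd percentiles. What raises the background value at PERK8 and PERK10 was not tested.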
